A study of Homo sapiens with 4 samples.

Results

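The laminin chains were described here in U87 cells, a human line derived from a glioblastoma. The 9 genes LAMA1 to LAMA5, LAMB1, LAMB2, LAMB3 and LAMC1 were taken from the deposited table of normalized values by transcript, by matching each transcript identifier without its version to GENCODE release 29 (GRCh38), and then summed per gene. They made up 9 of 22031 genes and 74 of 90643 matched transcripts, and the members were listed by name, not chosen by their values. Cells of 1 group had received a mimic of tRF-3009a, a short RNA cut from the CCA-bearing end of a tRNA (2 libraries), and cells of the other had received ssGL2, a single-stranded luciferase sequence that served as the control (2 libraries). Both groups shared the same line and medium with serum, a dose of 50 nM carried by Lipofectamine 2000, and collection after 48 hours. Poly(A) RNA was made into directional libraries and sequenced as pairs. Libraries are called mimic 1, mimic 2, control 1 and control 2, after the replicate numbers in their titles. The labels do not say what a number marks or whether equal treatments came from separate cultures, so p-values measure only the spread between these libraries.

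Laminins are large secreted glycoproteins of basement membranes, each built from an alpha, a beta and a gamma chain that coil together in the endoplasmic reticulum. A beta and a gamma chain join first, and the alpha chain completes the trimer and permits its release from the cell. A trimer is named by its chains in the order alpha, beta, gamma, so that laminin-511 holds the products of LAMA5, LAMB1 and LAMC1. The globular end of the alpha chain meets integrins and alpha-dystroglycan on the cell surface, while the short arms of the chains join trimers into a sheet. In glioblastoma, laminins are known from the vessel walls along which tumour cells migrate.

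Which gamma chain a trimer carries decides whether it holds a particular residue: a glutamate at the third position from the end of the gamma chain, needed for integrin binding, is present in the product of LAMC1 and lacking in that of LAMC3. The last 30 coding bases of both genes, stop codon included, are shown for that reason, read from GENCODE release 29 transcripts on GRCh38, 5′ to 3′, with the third codon before the stop in capitals. Both lie on the + strand, at chr1:183142761-183142790 for LAMC1 and chr9:131091758-131091787 for LAMC3.
LAMC1: ttcaacaccccgtccattGAAaagccctag
LAMC3: ctgcccgagaactgtgccAGCtggcagtga
The capitals read GAA in LAMC1, a codon for glutamate, and AGC in LAMC3, a codon for serine. LAMC3 was not among the 9 genes but is described with them, since some trimers need this chain. LAMB4, the remaining beta gene, was not analysed here.

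Libraries held 28775021 to 33833157 recovered reads. Of the glioma and astrocyte markers, 5 of 7 had a row: vimentin (VIM) and CD44 were high and GFAP stood at 0.594 to 1.94 TPM, a level scaled by transcript length. The summed level of these markers was 9558 and 4445 in mimic 1 and 2, and 10076 and 4601 in control 1 and 2, so it followed the replicate number. Most of that sum was VIM, at 8650 and 4027 TPM in the mimic libraries and 9200 and 4115 TPM in the control libraries. VIM, CD44, SLC1A3 and NES were each lower in both libraries of number 2. GFAP did not follow the number, with 1.94 and 1.28 TPM in the mimic libraries and 0.594 and 1.66 TPM in the control libraries. KDR, the highest endothelial marker, had 2.07 to 4.79 TPM, while TEK had 0.250 to 1.75 TPM and VWF 0.0268 to 0.125 TPM. PECAM1 (0.119 to 1.02 TPM) and CDH5 (0.122 to 0.243 TPM) were low but not at 0. So were CDH1 (0.406 to 0.969 TPM) and EPCAM (0.472 to 1.84 TPM) of epithelium. Over protein-coding transcripts alone, CDH1 ran from 0 to 0.181 TPM and EPCAM from 0 to 0.438 TPM. Most of the epithelial sum was KRT8 (5.63 to 8.32 TPM) and KRT18 (4.24 to 5.20 TPM). Summed levels were 7.93 and 2.78 in the mimic libraries and 5.80 and 3.13 in the control libraries for 5 of 6 endothelial markers, and 12.4 and 14.3 against 13.7 and 13.0 for 4 of 6 epithelial markers. For 3 of 4 skeletal muscle markers they were 0.628 and 0.530 in the mimic libraries, against 0.604 and 0.622 in the control libraries. The 6 of 6 fibroblast and mural markers summed to 222 and 140 in the mimic libraries and to 246 and 147 in the control libraries.

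All 9 laminin genes had RNA in every library, led by LAMC1 and LAMB1. Genes were compared per length: the value of each transcript was divided by its annotated length, summed per gene, and scaled so that all genes of a library add up to 1000000, a unit written TPM and computed here from the normalized values. Levels of single chains are given first over only those transcripts that are annotated with a complete coding frame of at least 3000 nt, since short or intron-holding transcripts weigh heavily once divided by length. That restriction was chosen after the values had been seen, and levels over all transcripts are given with the shares. In bulk RNA, a low level in every cell and a higher one in fewer cells cannot be told apart.

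Among gamma chains, LAMC1 (ENSG00000135862.5, chr1:183023460-183145592, + strand), the gamma chain of most known trimers, stood at 91.1 and 97.8 TPM in mimic 1 and 2, and at 87.7 and 98.0 TPM in control 1 and 2. This was the highest level of any laminin chain described here, in every library. LAMC3, a chain of trimers in the nervous system and other tissues, was at 0.0378 and 0.0386 TPM in the mimic libraries, against 0.0420 and 0.0111 TPM in the control libraries. Its normalized values of 3.60 and 3.82 in the mimic libraries and 4.15 and 1.12 in the control libraries amount to a few reads, below the mean of 10 required for testing.

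Among beta chains, LAMB1 (ENSG00000091136.13, chr7:107923799-108003255, − strand), the beta chain of embryonic and vascular laminins, reached 82.6 and 70.3 TPM in the mimic libraries, and 82.0 and 73.9 TPM in the control libraries. LAMB2 (ENSG00000172037.13, chr3:49121114-49133118, − strand), a beta chain of neuromuscular synapses and kidney glomeruli, had 23.2 and 43.9 TPM in the mimic libraries, against 26.7 and 38.04 TPM in the control libraries. LAMB3 (ENSG00000196878.14, chr1:209614870-209652466, − strand), a beta chain of skin and other epithelia, had 29.2 and 25.6 TPM in the mimic libraries and 35.8 and 30.9 TPM in the control libraries. LAMB1 thus led the class in every library, while the ranges of LAMB2 and LAMB3 overlapped and their order changed between libraries. In both libraries numbered 2, LAMB3 was below LAMB2, and in both numbered 1 it was above.

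Among alpha chains, LAMA5 (ENSG00000130702.15, chr20:62307955-62367312, − strand), the alpha chain of most adult epithelial and vascular basement membranes, led in every library with 19.5 and 19.6 TPM in the mimic libraries and 28.4 and 22.6 TPM in the control libraries. LAMA4 (ENSG00000112769.18, chr6:112108760-112254939, − strand), the alpha chain of endothelial and mesenchymal laminins, had 10.9 and 9.14 TPM in the mimic libraries, against 11.8 and 7.53 TPM in the control libraries. LAMA1 (ENSG00000101680.14, chr18:6941744-7117814, − strand), the alpha chain of the early embryo, had 5.80 and 8.02 TPM in the mimic libraries and 5.41 and 7.52 TPM in the control libraries. The ranges of LAMA4 and LAMA1 overlapped, and in control 2 they were almost level.

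The remaining alpha chains were low. LAMA3 (ENSG00000053747.16, chr18:23689443-23956222, + strand), an alpha chain of skin and other epithelia, had 1.66 and 1.04 TPM in the mimic libraries, against 1.15 and 0.950 TPM in the control libraries. LAMA2 (ENSG00000196569.12, chr6:128883141-129516569, + strand), the alpha chain of muscle and Schwann cells, had 0.698 and 0.565 TPM in the mimic libraries and 0.628 and 0.705 TPM in the control libraries. The order LAMA5, LAMA4, LAMA1, LAMA3, LAMA2 held in all 4 libraries on this level. No test was run between genes, and the positions of LAMB2, LAMB3 and LAMA5 overlapped in range.

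**Figure D1:**
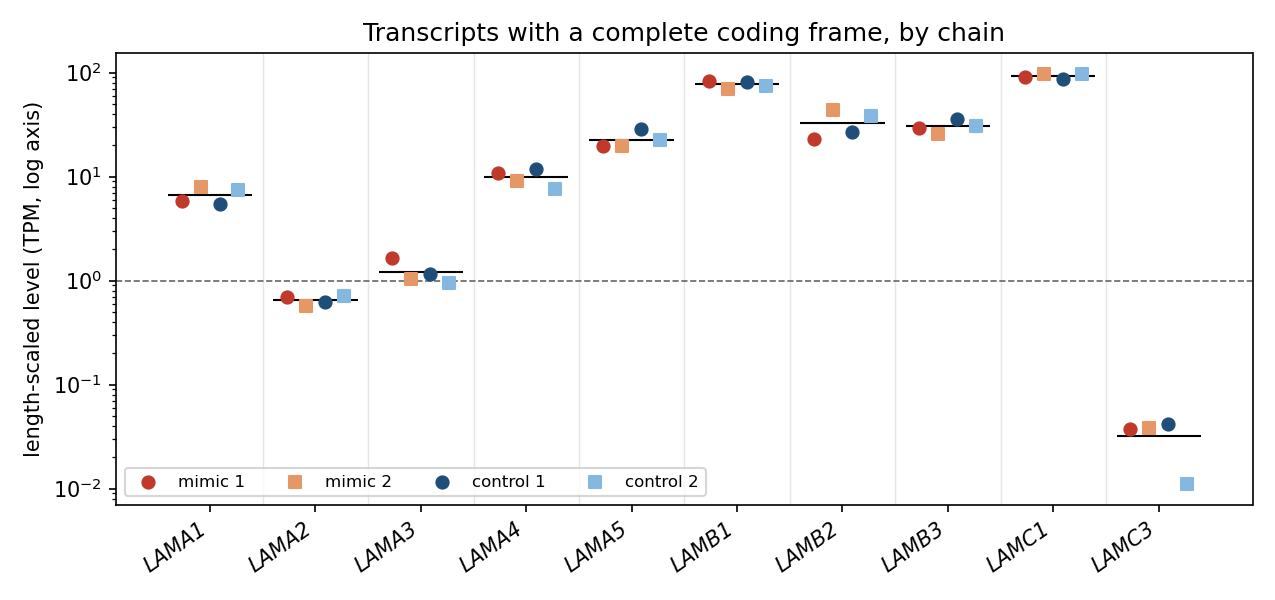
Length-scaled level (TPM, log axis) of transcripts with a complete coding frame for each laminin chain, 1 point per library and a bar at the mean of the 4 libraries, with a dashed line at 1 TPM. LAMC1 and LAMB1 lie highest, LAMA3 lies at the line, LAMA2 lies below it, and LAMC3 lies between 0.0111 and 0.0420 TPM.

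Alpha chains together were scarcer than beta chains together and than LAMC1 alone. On the complete-frame level, alpha chains added up to 38.6 and 38.4 TPM in the mimic libraries and 47.3 and 39.4 TPM in the control libraries. Beta chains added up to 135 and 140 TPM in the mimic libraries, against 144 and 143 TPM in the control libraries. Beta over alpha came to 3.05 to 3.64, LAMC1 over alpha to 1.85 to 2.55, and beta over LAMC1 to 1.43 to 1.65 across the 4 libraries. With all transcripts these ratios were 2.33 to 3.10, 1.38 to 2.15 and 1.41 to 1.68, so the alpha class was lowest either way.

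Over all transcripts, 1 chain led the alpha class and 1 the beta class in every library. LAMA5 held 49.1% and 55.8% of the alpha level in the mimic libraries and 58.3% and 59.2% in the control libraries, a mean over all 4 of 55.6% ± 4.57 (SD). LAMA4 followed with a mean share of 24.0%, LAMA1 with 14.1%, LAMA3 with 3.23% and LAMA2 with 3.11%. In control 2 LAMA1 (18.8%) was above LAMA4 (17.2%). With only the highest transcript of each gene, LAMA1 (19.4%) came before LAMA4 (11.3%), and with only protein-coding transcripts LAMA2 held 1.397%. The share of LAMA5 was lower in both mimic libraries than in either control library, and it was not tested. In the beta class, LAMB1 held a mean of 49.6% ± 6.01, LAMB2 27.5% ± 7.08 and LAMB3 23.0% ± 2.64 (SD, n = 4). Levels over all transcripts ran from 118 to 128 TPM for LAMC1, 78.6 to 113 for LAMB1, 41.6 to 64.7 for LAMB2, 37.4 to 53.8 for LAMB3 and 32.5 to 51.2 for LAMA5. They ran from 10.2 to 24.4 TPM for LAMA4, 7.71 to 11.2 for LAMA1, 1.53 to 2.64 for LAMA2 and 1.23 to 3.55 for LAMA3, so LAMA2 and LAMA3 overlapped here.

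Most of the laminin RNA lay in transcripts that encode a whole chain. Of the 74 transcripts, 29 are annotated as protein coding, 26 as holding a retained intron and 17 as processed transcripts without a frame, and 22 were listed at 0 in at least 1 library. Complete frames held a mean of 97.4% of the normalized value of LAMC1, 97.0% of LAMB1, 93.6% of LAMA5, 92.3% of LAMB2, 91.1% of LAMA4 and 91.0% of LAMB3. Their share was smaller in LAMA2 (88.4%), LAMA1 (84.2%) and LAMA3 (75.8%). In LAMA1 the rest was retained-intron RNA, 10.4% to 22.6% of the gene across libraries, and in LAMA3 processed transcripts held 6.06% to 23.4%.

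**Figure D2:**
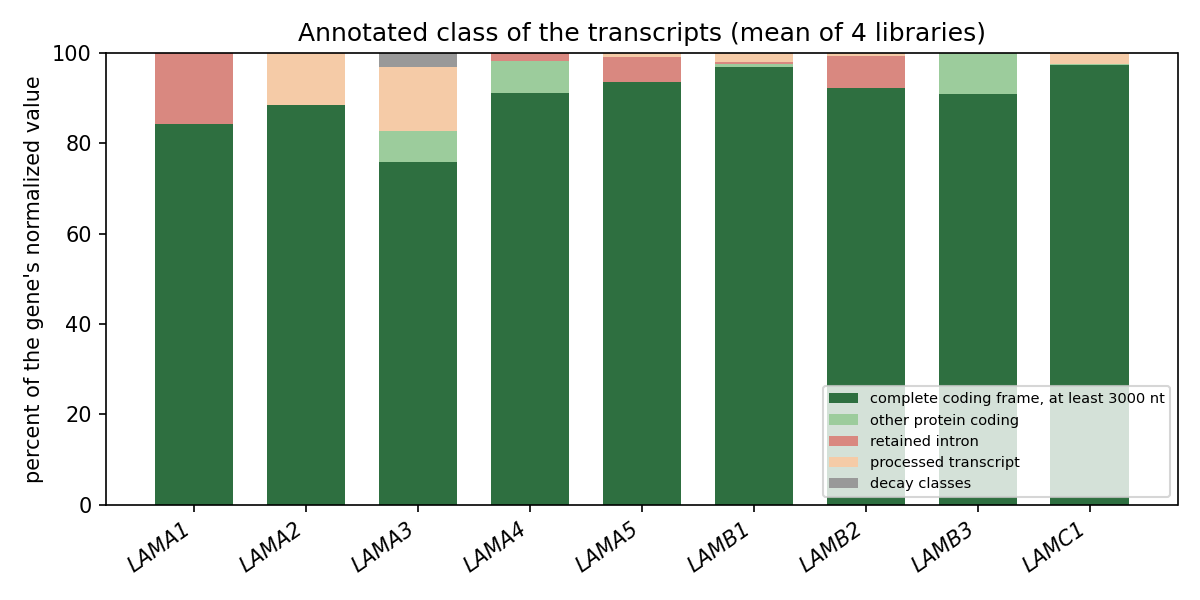
Percent of each laminin gene's normalized value, as the mean of 4 libraries, by the annotated class of its transcripts. Complete coding frames make up the largest part of every bar, from 75.8% in LAMA3 to 97.4% in LAMC1, and the retained-intron part is widest in LAMA1.

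For LAMA3 and 5 other genes, 1 transcript carried the complete frame alone or nearly so. Those 5 were ENST00000258341 of LAMC1 (frame of 4827 nt), ENST00000222399 of LAMB1 (5358 nt), ENST00000252999 of LAMA5 (11085 nt), ENST00000389658 of LAMA1 (9225 nt) and ENST00000421865 of LAMA2 (9366 nt). LAMB2 split between ENST00000305544, with 1581 and 3356 in the mimic libraries and 2136 and 2763 in the control libraries, and ENST00000418109, with 449 and 651 against 296 and 779. LAMB3 split between ENST00000356082 and ENST00000391911, which have frames of the same length, 3516 nt. Such sister transcripts share most of their sequence, so the split of reads between them is an estimate.

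The clearest case was LAMA4, with 4 complete frames of 5448 to 5469 nt. One of these, ENST00000389463, had 269 and 19.1 in the mimic libraries, against 159 and 391 in the control libraries, or 1.97% to 47.4% of the gene. The complete frames together held a narrower 87.7% to 94.9% of LAMA4, so the variation lay in the split among sisters. Values of single LAMA4 transcripts are therefore uncertain, and the gene sum was used.

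The LAMA3 locus makes a long chain and a short one from separate promoters, and the short one is the main form in skin. The transcript with a complete frame here, ENST00000313654, encodes the long chain (9999 nt) and starts at chr18:23689443 on GRCh38, + strand. It had normalized values of 275 and 180 in the mimic libraries and 198 and 167 in the control libraries. The short-form transcript ENST00000269217, which starts 183397 bases downstream and has a frame of 5172 nt, was not analysed here. The LAMA3 level therefore speaks of the long form.

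Which trimers the RNA would permit was read from the lowest of the 3 chains each trimer needs, for 13 trimers taken from general knowledge of the family. In 6 of the 13, all 3 chains reached 1 TPM in every library on the complete-frame level: laminin-511, laminin-521, laminin-411, laminin-421, laminin-111 and laminin-121. Their lowest chain was LAMA5 in laminin-511 (19.5 to 28.4 TPM), LAMA4 in laminin-411 and laminin-421 (7.53 to 11.8 TPM) and LAMA1 in laminin-111 and laminin-121 (5.41 to 8.02 TPM). In laminin-521 it was LAMA5 in 3 libraries and LAMB2 in control 1, with 19.5 to 26.7 TPM. The alpha chain thus set the lowest level in all 6, apart from that 1 library.

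The remaining trimers were limited by chains near or below 1 TPM. Laminin-311 and laminin-321 were limited by LAMA3, which was under 1 TPM only in control 2, at 0.950. That level is of the long LAMA3 chain, and these trimers with the short chain were not analysed here. No trimer with LAMB3 was analysed here. Laminin-211 and laminin-221 were limited by LAMA2, at 0.565 to 0.705 TPM, and laminin-213, laminin-423 and laminin-523 by LAMC3, at 0.0111 to 0.0420 TPM. With all transcripts in place of complete frames, 10 of 13 reached 1 TPM, since LAMA3 and LAMA2 then lay above it, and the 3 trimers with LAMC3 did not. These are levels of RNA, and chains, assembly and secretion were not measured.

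**Figure D3:**
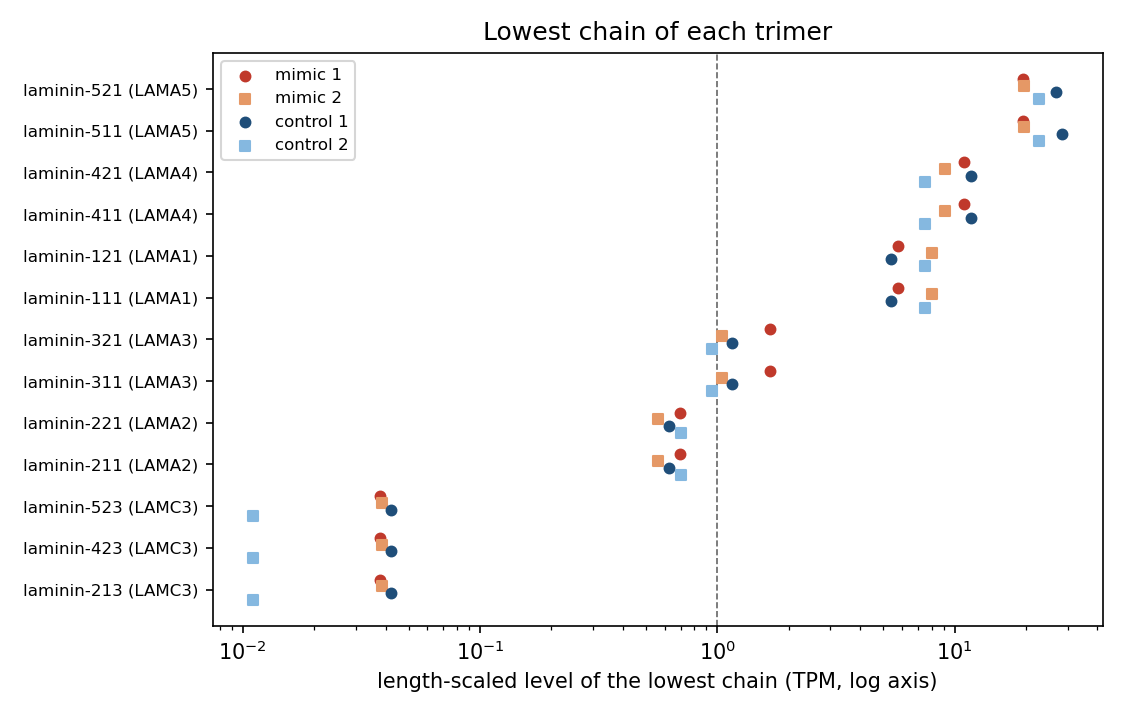
Length-scaled level (TPM, log axis) of the lowest chain of each of 13 laminin trimers, with that chain in brackets, 1 point per library and a dashed line at 1 TPM. The 6 trimers with LAMA5, LAMA4 or LAMA1 and with LAMC1 lie to the right of the line in every library, those with LAMA3 lie around it, those with LAMA2 or LAMC3 lie to its left, and the control 1 point of laminin-521 is LAMB2.

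The mimic was compared with the control to ask which genes it changes, and no laminin gene passed the main test, which left out replicate number. Over 16535 genes with a mean of at least 10, 0 were called, a background of 0%, by limma on log2(value + 1) with Benjamini-Hochberg adjustment at 0.05. At an unadjusted p under 0.05 there were 26 genes in limma, and edgeR and DESeq2 also called 0, with 35 and 23 genes at that unadjusted p. All 9 laminin genes were tested, and their differences, mimic minus control, ran from −0.41 to 0.25 on the log2 scale, with 5 of 9 below 0, against 53.8% of all genes. Their median was −0.012, against −0.014 for all genes. In counts simulated for 16217 genes with the number difference of these data, the same fit passed 0 of 100 genes altered 2-fold and 0 of 100 altered 4-fold, so a missing call says little about changes of that size.

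LAMA5 had normalized values of 3760 and 3810 in the mimic libraries, against 5658 and 4499 in the control libraries, or 3785 ± 35.6 against 5079 ± 819 (SD, n = 2 each). Both mimic libraries were below both control libraries, and mimic 1 and 2 were almost equal. The log2 difference was −0.41 ± 0.22 (SE; limma, unadjusted p = 0.122, adjusted p = 1.00). Within number 2 it was −0.24 and within number 1 it was −0.59. The fit had no term for replicate number. With such a block limma called LAMA5, but not once G and C content was corrected too, as the closing section gives.

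LAMB3 had 2049 and 1887 in the mimic libraries, against 2636 and 2293 in the control libraries, or 1968 ± 115 against 2464 ± 243 (SD, n = 2 each). Again the groups did not overlap, with a log2 difference of −0.32 ± 0.21 (SE; limma, unadjusted p = 0.189, adjusted p = 1.00), −0.28 within number 2 and −0.36 within number 1. LAMA5 and LAMB3 were the 2 of 9 members with all mimic values below all control values, against 6.21% of all genes tested, and no member had the reverse order, against 6.18%.

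These genes were also among those richest in G and C: 66.3% of LAMA5, 60.2% of LAMB2 and 59.1% of LAMB3 transcript bases, against 46.1% to 50.6% in the other members. The 2154 tested genes with at least 60% G and C had a median difference of −0.13 on the log2 scale, and the 14381 others of 0.00094. LAMB3 is among these others, and LAMB2, among the 2154, had a difference of −0.012. After a lowess correction for this content the difference of LAMA5 was −0.26 and that of LAMB3 −0.24, with no call. The exons of LAMA5 overlap those of ADRM1 on the opposite strand, which had 5355 and 6923 in the mimic libraries and 6702 and 7482 in the control libraries. The exons of LAMB1 likewise overlap those of DLD on the opposite strand, which had 4932 and 3962 in the mimic libraries and 4190 and 3973 in the control libraries. Whether counting used the strand is not given in the sources used here, and reads of such a pair cannot be told apart without it. The part of G and C content or of such overlaps in the differences between treatments was not tested.

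**Figure D4:**
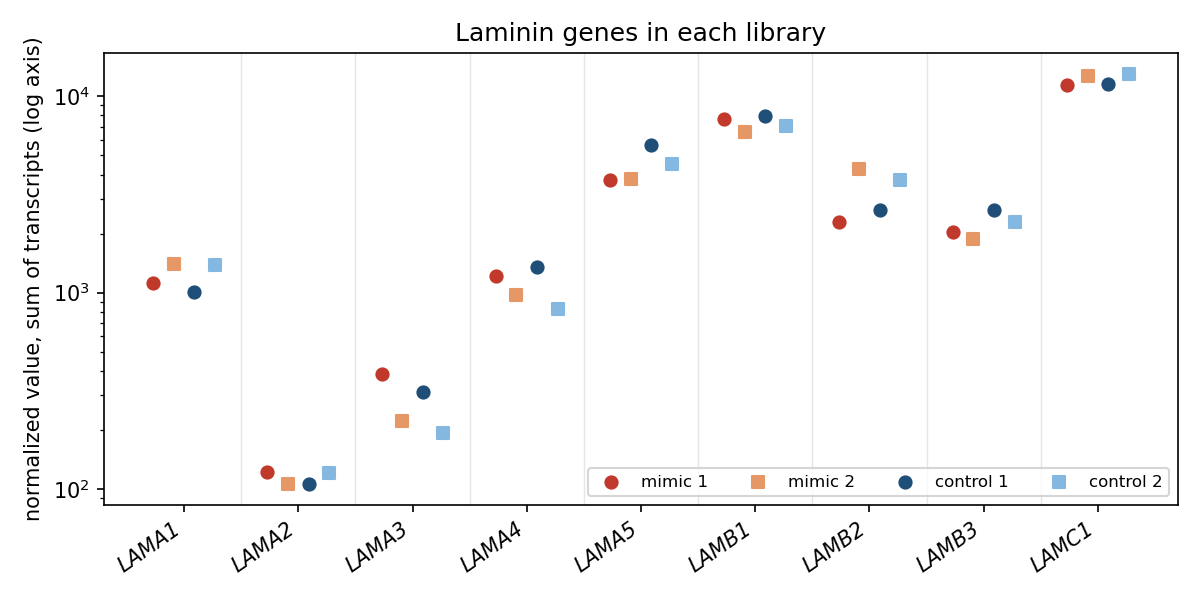
Normalized value (sum of transcripts, log axis) of the 9 laminin genes, 1 point per library, with mimic libraries in red and orange and control libraries in dark and light blue. Both mimic points lie below both control points in LAMA5 and LAMB3, while in LAMB2, LAMA1, LAMA3 and LAMA4 circles (number 1) and squares (number 2) lie apart.

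The other 7 members overlapped between treatments. LAMC1 had 11492 and 12685 in the mimic libraries, against 11535 and 13082 in the control libraries, a log2 difference of −0.025 ± 0.20 (SE). LAMB1 had 7682 and 6615 in the mimic libraries, against 7918 and 7080 in the control libraries, a difference of −0.071 ± 0.20. LAMA2 had 121 and 106 in the mimic libraries, against 106 and 121 in the control libraries, a difference of 0.0022 ± 0.32. Differences between treatments in these were smaller than the gaps within a treatment. The log2 differences of the remaining members, LAMA1 (0.082 ± 0.28), LAMA4 (0.040 ± 0.34), LAMB2 (−0.012 ± 0.40) and LAMA3 (0.25 ± 0.44), were likewise under their SE, and those of LAMA4 and LAMB2 differed in sign between the numbers (0.23 and 0.18 within number 2, −0.15 and −0.21 within number 1).

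Libraries separated by replicate number far more than by treatment, and 4 laminin genes differed with it. In the fit of number 2 minus number 1, 50.2% of all genes tested were called, 26% higher and 24.2% lower in number 2, against 4 of 9 laminin genes, 2 higher and 2 lower. The members' share is near that background. Values of number 2 and number 1 did not overlap in 75.7% of all genes.

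LAMB2 had 4264 in mimic 2 and 3759 in control 2, against 2286 in mimic 1 and 2635 in control 1. It was higher in both libraries of number 2, by 0.71 ± 0.10 on the log2 scale or 1.63-fold (SE; limma, adjusted p = 0.000376). LAMA1 had 1398 in mimic 2 and 1388 in control 2, against 1121 in mimic 1 and 1007 in control 1, a log2 difference of 0.39 ± 0.094 (limma, adjusted p = 0.00746). Both genes were higher in number 2 within the mimic and within the control. With 3 libraries the call on LAMA1 was lost without mimic 2 (limma, adjusted p = 0.0839) and without control 2 (0.0765), while the difference stayed at 0.39 and 0.40.

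LAMA3 had 221 in mimic 2 and 193 in control 2, against 385 in mimic 1 and 312 in control 1, a log2 difference of −0.74 ± 0.16 (SE; limma, adjusted p = 0.00402). LAMA4 had 970 in mimic 2 and 825 in control 2, against 1216 in mimic 1 and 1352 in control 1, a difference of −0.52 ± 0.11 (limma, adjusted p = 0.00401). Both were lower in both libraries of number 2, and both calls were lost without control 2, at −0.65 for LAMA3 (limma, adjusted p = 0.0588) and −0.40 for LAMA4 (0.0728). The long-form transcript ENST00000313654 of LAMA3 alone differed by −0.43, with limma's adjusted p = 0.328 over single transcripts.

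LAMC1 (0.16 ± 0.073, adjusted p = 0.0952) and LAMB1 (−0.19 ± 0.076, adjusted p = 0.0676) did not pass limma's test, although their values did not overlap between numbers. LAMA5 (−0.16 ± 0.17), LAMB3 (−0.16 ± 0.13) and LAMA2 (−0.0024 ± 0.20) had log2 differences within about their spread, with limma's adjusted p = 0.472, 0.353 and 0.992. Without mimic 1, LAMA5 differed by −0.45 (limma, adjusted p = 0.0142). Laminin-411 and laminin-111 thus had limiting chains, LAMA4 and LAMA1, that differed in opposite directions between the numbers. Summed levels of glioma and astrocyte markers, of fibroblast and mural markers and of endothelial markers were lower in number 2. Of the 6 fibroblast and mural markers, 4 were called lower and 1 higher, against 24.2% and 26% of all genes. The higher one was ACTA2, with a log2 difference of 0.33 (limma, adjusted p = 0.0269). The part of these markers in the differences of the laminin genes was not tested.

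**Figure D5:**
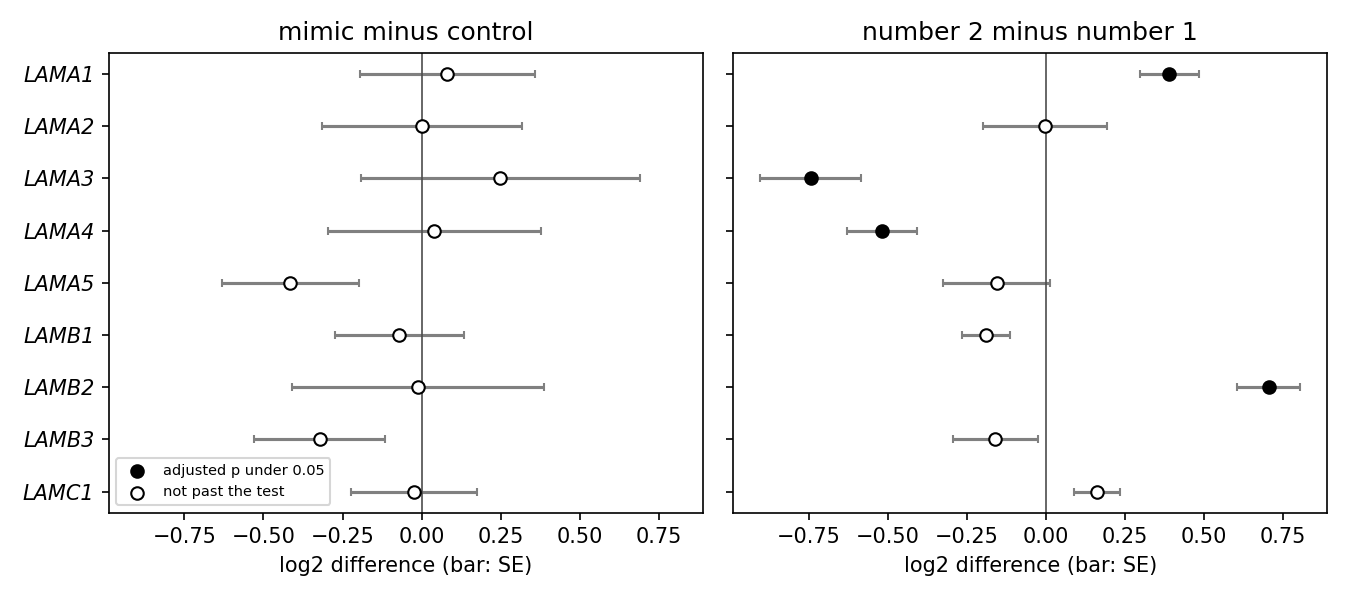
Log2 difference of each laminin gene with its SE from limma, mimic minus control at left and number 2 minus number 1 at right, with filled points for an adjusted p under 0.05. No point is filled at left, and at right LAMA1 and LAMB2 are filled above 0 and LAMA3 and LAMA4 below it.

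By single transcripts, 48 of the 74 had a mean of at least 10. None was called for mimic minus control, where 0 of 58500 transcripts were. An unadjusted p under 0.05 in limma was reached by 922 of the 58500 and by 1 of the 48. That was ENST00000230538 of LAMA4, with 52.1 and 58.3 in the mimic libraries, against 14.5 and 10.1 in the control libraries, a log2 difference of 2.10. It is 1 of the 4 sister transcripts whose split is uncertain. For number 2 minus number 1, 1 of 48 was called, against 8.32% of all transcripts tested: ENST00000468999 of LAMB1, a processed transcript of 764 nt. It had 12.3 in mimic 2 and 15.7 in control 2, against 138 in mimic 1 and 129 in control 1, a difference of −3.17 ± 0.32 (SE; limma, adjusted p = 0.0184).

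Genes that work with laminins were counted from lists, and none was called for mimic minus control. Of 14 basement membrane partners 13 were tested, with a median log2 difference of 0.0017 between treatments, and 3 were higher and 5 lower in number 2, or 8 of 13 called, against 50.2% of all genes. SPARC, a collagen-binding matrix protein, had levels of 141 to 379 TPM over all transcripts and was lower in number 2, with a log2 difference of −1.44. AGRN, which links laminin to dystroglycan, had 40.3 to 79.8 TPM and was higher, by 0.83. Nidogens join laminin to collagen IV: NID2 had 7.76 to 17.2 TPM and was lower in number 2, with a log2 difference of −0.70, while NID1 had 0.0878 to 0.234 TPM. Of the collagen IV chains, COL4A1 had 0.0668 to 0.326 TPM, and COL4A2, lower in number 2 with a log2 difference of −1.11, had 2.80 to 21.2 over all transcripts but 0.872 to 3.24 over protein-coding ones. COL4A5 (8.48 to 14.8 TPM) and COL4A6 (5.03 to 9.61 TPM), named after their values were seen, were higher than COL4A1 in every library.

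Of the laminin receptors, 13 of 13 were tested, with a median log2 difference of −0.087 between treatments and 6 lower and none higher in number 2, or 6 of 13 called, against 24.2% of all genes lower and 26% higher. ITGB1, the beta subunit of most laminin-binding integrins, had 779 to 996 TPM, and ITGA3, its partner in a receptor for laminin-511, had 821 to 961. CD151, a tetraspanin bound to that integrin, had 434 to 537 TPM and a log2 difference of −0.24 between treatments. RPSA, a ribosomal protein also described as a laminin receptor, had 1454 to 1524 TPM, and its many pseudogenes may exchange reads with it. BCAM, a receptor for LAMA5, was low at 1.13 to 1.70 TPM, with a difference of −0.44 between treatments that did not pass the test. The receptors ITGA6, ITGB4 and DAG1 were added for their known binding after their values were seen. ITGA6 had 5.88 to 8.49 TPM, ITGB4 0.379 to 2.33, and DAG1, the dystroglycan gene, 23.1 to 42.7 with a difference of −0.62 in number 2 (limma, adjusted p = 0.00186).

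Alpha-dystroglycan binds laminin only through a sugar chain, and 11 of the 12 genes listed for its synthesis were tested. Their median log2 difference between treatments was −0.042, and 3 were higher and 3 lower in number 2, or 6 of 11 called, near the 50.2% of all genes. POMGNT1 had 65.8 to 81.5 TPM, RXYLT1 24.1 to 29.3, POMT2 18.5 to 22.3, POMGNT2 8.37 to 20.0 and POMT1 7.26 to 10.5. POMGNT2 was lower in number 2, with a log2 difference of −1.005, and POMGNT1, RXYLT1, POMT1 and POMT2 were not called. Of 7 netrins and relatives that carry laminin-like domains, 4 were tested, with a median of 0.18 between treatments, and 2 were higher and 1 lower in number 2, against 50.2% of all genes called. NTN4, which can bind the gamma chain of laminin, had 11.1 in mimic 2 and 10.2 in control 2, against 3.94 in mimic 1 and 2.84 in control 1, in TPM. NTNG2 was higher and NTNG1 lower in number 2, with log2 differences of 2.54 and −0.97.

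The genes most like LAMC1 over the 4 libraries were CRBN, PES1 and EEF1D, with root mean square differences from it of 0.0053, 0.0065 and 0.0076 on the centred log2 scale. CRBN had 954 and 1048 in the mimic libraries, against 951 and 1075 in the control libraries.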

How the data were processed

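RNA of 4 libraries was analysed, 2 per group, all from U87 cells. The deposited table holds a signal per Ensembl transcript: per the submitters' processing notes the tools were kallisto and DESeq2 and the build hg38 (versions not given in the sources used here), and the values show that the authors divided estimated reads by a factor for each library. In low values, 96.0% to 99.7% were whole multiples of 1 step within 0.1, and dividing by that step gave the reads used for edgeR and DESeq2. The table holds 100809 transcripts, and the lowest sum of reads in a row was 10. Transcripts matched to GENCODE release 29 numbered 90643 (89.9%), 79288 with the same version, and the others, 3.25% to 3.56% of each library's values, were left out.

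Gene sums were tested with limma 3.58.1 (R 4.3.3) (trended variance) after adding 1 and taking log2, keeping genes whose mean reached 10. Tests were two-sided and p-values were adjusted over all genes by Benjamini-Hochberg, at 0.05. Differences on that scale understate the change of low genes. Treatment was fitted without a replicate block, and replicate number in a separate fit. Tables and figures were made in Python 3.11.15.

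The genes named are all members, LAMC3, and of each other list the 3 with the smallest p in the treatment fit and the 3 with the largest level per length, plus the 3 most like LAMC1. Some genes that this rule takes are not reported here. Members and lists, marker lists included, were chosen with earlier results of these data known. Alternatives were other pseudocounts (0.5, 5), no filter or a mean of 50, equal totals, TMM, a lowess GC correction (span 0.3), a replicate block, edgeR 4.0.16, DESeq2 1.42.0, each library left out, other transcript choices and lengths shortened by 200 nt. The fit was tried on simulated counts. Without a number difference (16390 genes), it recovered 84 of 100 genes altered 2-fold and 100 of 100 altered 4-fold, with 7 false calls.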

Additional observations from a re-analysis of the deposited data

How the results depend on the processing

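The treatment call of 0 genes held with each library left out and under other pseudocounts, filters, scalings, the GC correction, edgeR and DESeq2. With a replicate block, 117 genes were called (0.708% of those tested), and with the block and the GC correction together 8; LAMA5 then had limma's adjusted p of 0.00359 and 0.158. The labels do not pair the libraries, same-numbered libraries deviated together across genes (r = 0.745), and with 2 pairs this is no proof of pairing. Between numbers, single transcripts gave 4865 calls and leaving out 1 library 5163 to 7942 (5163 without mimic 2, 5430 without control 2), against 8301. For mimic minus control, log2 differences near 0 turned sign: LAMA2 to −0.035 with the GC correction, with and without the block; LAMB2 to 0.026 with equal totals, 0.082 with the GC correction, with and without the block, 0.040 in edgeR and 0.039 in DESeq2; LAMC1 to 0.013 with equal totals. Between numbers LAMA2 turned to 0.027 with the GC correction. Leaving out 1 library, differences between treatments ran from −0.15 to 0.31 (LAMA1), −0.095 to 0.0997 (LAMA2), −0.15 to 0.65 (LAMA3), −0.32 to 0.40 (LAMA4), −0.18 to 0.037 (LAMB1), −0.46 to 0.44 (LAMB2) and −0.12 to 0.066 (LAMC1). They kept their sign in LAMA5 (−0.58 to −0.25) and LAMB3 (−0.42 to −0.22). Between numbers they ran from −0.0999 to 0.095 (LAMA2), −0.45 to 0.14 (LAMA5) and −0.34 to 0.021 (LAMB3), and the median of the 9 genes from −0.24 to 0.021, the highest without control 1. LAMB1 passed between numbers with equal totals (limma, adjusted p = 0.0282) and the GC correction (0.0259), and LAMC1 with the GC correction (0.0196). LAMA5 held 48.3% of the alpha level over protein-coding transcripts and 63.9% over the highest transcript of each gene, and LAMB1 61.3% of the beta level over the highest transcript. With a floor of 0.5 TPM 10 trimers passed, with all transcripts 10, and with a floor of 5 TPM 6. The causes of these changes were not tested. Trimer floors, complete frames and the block with the GC correction were chosen after seeing the data. Depth bears on LAMC3 and on minor transcripts, which rest on few reads.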
